A study of Mus musculus with 12 samples.

Results

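The comparison of Late with Basal nuclei sets the 3 RNA libraries titled Late against the 3 titled Basal, all from neuronal nuclei sorted out of mouse hippocampus. Its members are the genes with a count of 10 or more in at least 3 of the 12 libraries of the study, 15668 of the 24015 rows of the deposited table. All mice, those of the Basal libraries included, carried ArcCreERT2, a tamoxifen-dependent Cre recombinase expressed from the Arc gene, and R26R-STOP-floxed yellow fluorescent protein (eYFP), a reporter that stays on once Cre has removed its stop. The genotype field reads +/+ for every library, and no source used here states the age or sex of the mice. Each mouse received 1 dose of 4-hydroxytamoxifen 1 h before contextual fear conditioning, after 24 h in the dark. Brains were collected 1.5 to 2 h afterwards, or on day 5 following 48 h of darkness, and part of the day 5 mice first met the tone and context again. The nuclei, fixed with paraformaldehyde at 1%, were stained for NeuN, Arc and GFP and sorted at 10000 nuclei per condition from pools of 10 to 12 mice, in 3 biological replicates. The treatment field of all 12 libraries is the same and gives day 0 as the day of shock and of collection, with no recall. The groups therefore come from the titles alone. No label says which sorting gate, which reporter state or which collection time belongs to Basal or to Late. The groups titled Early and Reactivated, also of 3 libraries each, are used only to place the levels of named genes.

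Neurons that take part in learning switch on immediate early genes within minutes, and their products, many of them transcription factors, switch on late response genes that act at the synapse. The protein of Arc removes AMPA receptors from synapses, and its gene is among the most used marks of recently active neurons. RNA of nuclei differs from RNA of whole cells: it is rich in unspliced transcripts, long noncoding RNAs and the small RNAs that process ribosomal RNA. In the hippocampus, granule cells of the dentate gyrus, pyramidal neurons of CA3, CA2 and CA1, and inhibitory interneurons each have their own marker genes, so a difference in the mix of sorted neurons also appears as a difference in gene levels. In pooled nuclei, fewer nuclei of a type and less RNA per nucleus cannot be told apart.

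Late differed from Basal in about as many genes upward as downward. Of the 15668 genes tested, 7686 (49.1%) passed edgeR's quasi-likelihood test at an adjusted p of 0.05, of which 3981 (25.4%) rose and 3705 (23.6%) fell. A change of at least 2-fold was found for 2277 of the genes that rose and 2117 of those that fell, and one of at least 8-fold for 283 and 152. In 62.5% of the genes tested the 3 Late libraries did not overlap the 3 Basal libraries. These shares of all genes are the background for the counts of each gene list below. The median log2 fold change of all genes tested was -0.03. Changes below are relative to this median, because the scaling sets it: at the same total for each library it moved by -0.83, with the same total without Rn45s by -0.37, with upper quartile scaling by -0.23 and on the values as deposited by -0.20. The split of higher to lower genes was then 1401 to 9062, 2532 to 5944, 3016 to 5114 and 1780 to 2693. A gene or list that rose by less than 0.83 was thus lower in Late as a share of all counts. Rn45s, the precursor of ribosomal RNA, took 4.72%, 5.17% and 12.2% of the counts of the Basal libraries and 35.7%, 36.5% and 27.9% of the Late libraries (exact two-sided permutation p = 0.1, the smallest that 3 against 3 libraries allow).

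**Figure D1:**
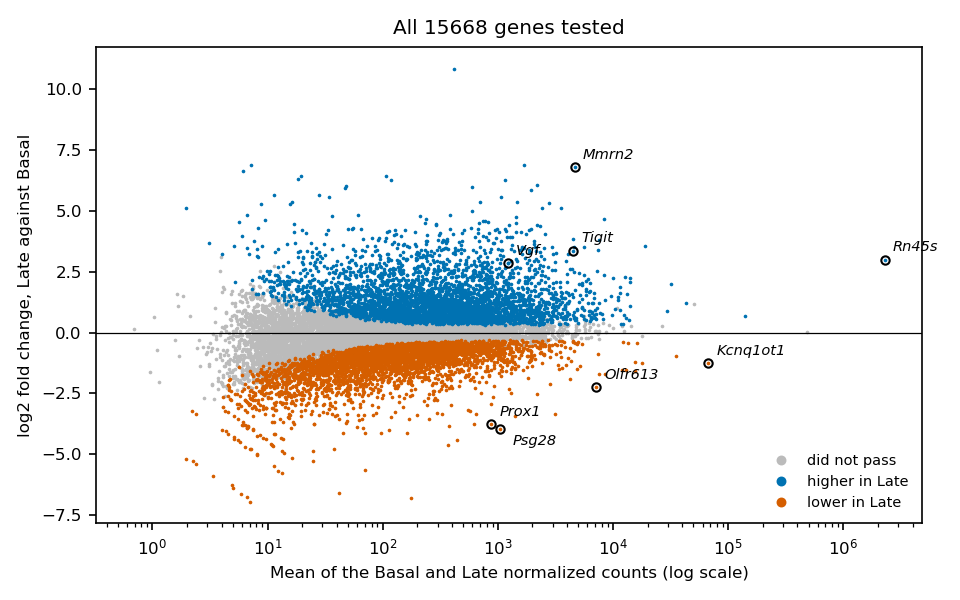
The x axis is the mean of the Basal and Late normalized counts on a log scale, the y axis the log2 fold change of Late against Basal, and each point is 1 of the 15668 genes tested. Blue points rose and orange points fell (adjusted p under 0.05), grey points did not pass, and circles mark named genes such as Mmrn2 at 6.80 and Psg28 at -3.95.

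Some facts of the libraries touch all that follows. Total counts were 4838166, 5693302 and 10255713 in Basal and 10794998, 9705505 and 11120255 in Late. Normalized counts, the unit of the levels below, are counts divided by the effective size of the library (TMM) relative to the geometric mean of the 12 libraries. Basal 3 was the highest Basal library in 65.7% of the genes that rose and in 42.0% of all genes tested, and Late 3 the lowest Late library in 66.8% and 37.5%. The direction of a change went with base composition. Of the 1547 genes with the lowest GC content of their transcripts 16.5% rose and 43.9% fell, and of the 1546 with the highest 43.2% rose and 6.60% fell. Of 911 genes with a gene at least 5 times as abundant on the opposite strand 6.37% rose and 31.8% fell, against 26.8% and 22.6% of the 12064 with no tested gene there. GC correction ended the calls of 31 of the 298 named genes for which it could be run. Values with it are given for a part of the results that it changed, and the part of opposite-strand genes was not tested. The strand setting of the counting is not given in the sources used here. Among genes named below, Grin3b, S100b, Ipo7 and Elk3 lie opposite a gene 28.1, 10.8, 8.79 and 5.84 times as abundant, and Rpl12, Hspe1, Pvt1 and Acvr2a opposite one 3.47, 2.98, 2.44 and 1.53 times as abundant. Rbfox3, which encodes the NeuN protein used in the sort, was at 1680.2, 2006 and 1651 normalized counts in Basal and 2315, 2346 and 2138 in Late (0.35, but -0.51 with the same total and -0.11 with GC correction), and Slc17a7, the vesicular glutamate transporter of excitatory neurons, at 2043, 2146 and 1578 and 4427, 4723 and 4479. Leaving out 1 library ended the call of Rbfox3 (0.30 to 0.39 without Late 1, Late 2, Late 3, Basal 1 or Basal 3).

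Most immediate early genes that passed the test were higher in Late. Of 21 tested, 12 rose and 2 fell, with a median log2 fold change of 1.02, where 25.4% of all genes rose and 23.6% fell. At the same total for each library 5 were higher and 4 lower. Fosb, an AP-1 transcription factor whose shortened product accumulates with repeated activity, had 15.5, 28.1 and 20.8 normalized counts in Basal and 149, 116 and 134 in Late. Its groups lay far apart, with Late 6.15-fold higher (adjusted p = 2.31e-06, log2 fold change 2.62 ± 0.26, as for all values given with ± SE below). Arc, whose protein was an antigen of the sort and whose gene drives the Cre, had 150.3, 102 and 183 in Basal and 602, 635 and 541 in Late and rose 4.05-fold (2.02 ± 0.23, adjusted p = 9.77e-06). The nuclear receptor gene Nr4a1 had 142, 117 and 159 in Basal and 349, 378 and 404 in Late and rose 2.69-fold (adjusted p = 3.17e-05). Npas4, a factor that recruits inhibitory synapses, had 62.2, 53.9 and 74.6 and 186, 149 and 164 and rose 2.60-fold (adjusted p = 5.63e-05). All 3 Late libraries were above all 3 Basal libraries for each of these 4 genes. Nr4a3, of the family of Nr4a1, rose by 1.94 on the log2 scale, and by 2.53 without Basal 3. Fos, the classic AP-1 partner of Jun, was low throughout, with 5.18, 5.61 and 10.8 in Basal and 26.4, 17.2 and 18.7 in Late (log2 fold change 1.45 ± 0.51, adjusted p = 0.0291). Its call ended in 7 of the alternatives, among them without Late 1 (1.25), without Basal 1 (1.30) and without Basal 2 (1.30). That of Npas4 ended with the same total (0.55).

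The 2 immediate early genes that fell were Btg2 and Jun. Btg2, an antiproliferative factor, was tightly grouped at 114, 113 and 119.8 in Basal and was at 26.4, 25.1 and 13.1 in Late, 5.45-fold lower (log2 fold change -2.44 ± 0.33, adjusted p = 3.32e-05). Jun had 328, 354 and 296 in Basal and 157, 143 and 174 in Late (-1.04 ± 0.16, adjusted p = 0.000106). With GC correction the counts of the list were 10 higher and 2 lower, and its median was 0.40 above that of all genes.

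The promoters of immediate early genes often hold a CRE, the site of the transcription factor CREB, written TGACGTCA in full, or its core TGACG. The following RefSeq sequences (GRCm38.p6) are the 250 bases before the transcription start of 3 genes that rose and of Btg2, which fell, and show that such letters stand before genes of either direction. The core, on either strand (as TGACG or CGTCA), is in capitals, and in Btg2 the capitals extend over the full site. Among 32851 promoter windows of the reference, 17.8% held the core and 1.55% the full site in these 250 bases.
Fosb (chr7:19310046-19310295, minus strand): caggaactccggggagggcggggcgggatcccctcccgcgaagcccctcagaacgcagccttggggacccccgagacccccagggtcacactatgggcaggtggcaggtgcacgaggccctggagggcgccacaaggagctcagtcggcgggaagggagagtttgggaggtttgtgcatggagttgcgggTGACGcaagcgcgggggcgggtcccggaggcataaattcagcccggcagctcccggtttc
Nr4a1 (chr15:101266596-101266845, plus strand): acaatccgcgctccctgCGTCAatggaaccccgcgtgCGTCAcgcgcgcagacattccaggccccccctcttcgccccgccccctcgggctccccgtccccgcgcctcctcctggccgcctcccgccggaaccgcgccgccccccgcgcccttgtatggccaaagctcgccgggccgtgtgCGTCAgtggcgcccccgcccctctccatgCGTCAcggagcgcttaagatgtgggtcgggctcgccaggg
Npas4 (chr19:4989972-4990221, minus strand): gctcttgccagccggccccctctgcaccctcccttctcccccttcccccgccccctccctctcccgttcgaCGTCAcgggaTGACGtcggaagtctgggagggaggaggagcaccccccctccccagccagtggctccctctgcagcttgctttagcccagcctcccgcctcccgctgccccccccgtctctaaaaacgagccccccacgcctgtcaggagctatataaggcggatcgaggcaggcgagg
Btg2 (chr1:134079156-134079405, minus strand): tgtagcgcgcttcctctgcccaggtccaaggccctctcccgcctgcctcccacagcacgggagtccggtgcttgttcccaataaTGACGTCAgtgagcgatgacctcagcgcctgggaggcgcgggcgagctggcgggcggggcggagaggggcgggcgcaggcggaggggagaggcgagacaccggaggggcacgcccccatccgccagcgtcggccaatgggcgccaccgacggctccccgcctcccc

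Of the 21 immediate early genes tested, 17 had a promoter window. A gene was counted if any of its windows held the letters, whereas the percentages of the reference are of single windows. The core was in 7 of 10 that rose, in 1 of 2 that fell and in 4 of 5 that did not pass. The full site was in 0 of the 10 that rose, in Btg2 and in 1 of the 5. Fosb held 1 core, Nr4a1 4 and Npas4 2, while their log2 fold changes were 2.62, 1.43 and 1.38. These are matches of letters in a window and not measured binding sites.

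**Figure D2:**
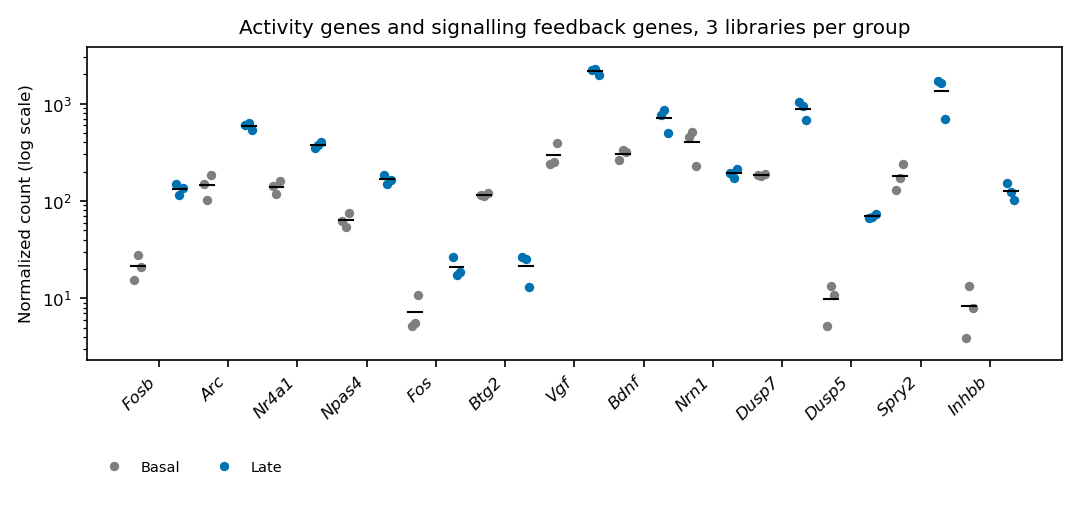
Each point is the normalized count of 1 library (y axis, log scale), grey for the 3 Basal and blue for the 3 Late libraries, and black lines are group means. From Fosb to Fos and for Vgf, Bdnf, Dusp7, Dusp5, Spry2 and Inhbb every Late point lies above every Basal point, and for Btg2 and Nrn1 every Late point lies below.

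Late response genes did not move together. Of 18 tested, 7 rose and 4 fell (median 0.24, with 1 higher and 9 lower at the same total). Vgf, a secreted neuropeptide precursor induced by neurotrophins, had 241, 251 and 393 normalized counts in Basal and 2213, 2288 and 1946 in Late, 7.24-fold higher (log2 fold change 2.86 ± 0.19, adjusted p = 8.95e-08). Bdnf, the neurotrophin of activity-dependent plasticity, had 260.4, 332 and 320.0 in Basal and 771, 855 and 504 in Late (1.22 ± 0.25, adjusted p = 0.00123), a call that ended with the same total (0.35). Sorcs3, a sorting receptor of the postsynapse, rose by a log2 fold change of 1.09. The 4 genes that fell were Tiparp, an ADP-ribosyl transferase (-2.14), Nrn1, a surface-anchored growth factor (-1.05), Inhba, the activin A subunit (-0.82), and Rheb, the activator of mTORC1 (-0.69). Nrn1 was at 453, 516 and 230.3 in Basal, where Basal 3 stood lowest, and at 193, 172 and 212 in Late. With 1 library left out, the call was lost for Inhba (-0.72 to -0.66 without Late 3 or Basal 2) and Rheb (-0.64 to -0.56 without Late 1, Late 2, Basal 1 or Basal 3). The fold change moved by over 1.5-fold with 1 library left out for Tiparp (-2.77 without Late 3).

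Feedback inhibitors of the ERK pathway, which are induced by ERK and shut it off, were mostly higher. Of 11 tested, 6 rose and 2 fell (median 0.59, with 3 higher and 5 lower at the same total). Spry2, a sprouty protein that blocks receptor signalling to ERK, had 128, 171 and 240.3 in Basal and 1695, 1643 and 692 in Late (2.88 ± 0.48, adjusted p = 0.00022), with Late 3 far below Late 1 and Late 2. Dusp7, a phosphatase of ERK, was at 187, 181 and 187 in Basal and 1039, 951 and 670.5 in Late (2.26 ± 0.18, adjusted p = 3.33e-07). Dusp5, its nuclear counterpart, was at 5.18, 13.5 and 10.8 and 66.1, 68.7 and 73.8 (2.78 ± 0.35, adjusted p = 1.9e-05). Dusp6 rose by 1.53 and Spry4 by 0.94 on the log2 scale. The 2 that fell were Dusp4 (-0.65) and Dusp14 (-0.99), which also encode phosphatases of MAP kinases. Without 1 of the 6 libraries, a call ended for Spry4 (0.68 to 0.92 without Late 1, Late 3 or Basal 2), Dusp4 (-0.69 to -0.46 without Late 1, Late 2, Late 3 or Basal 2) and Dusp14 (-0.87 to -0.84 without Late 2, Basal 1 or Basal 2). A single library moved the fold change by over 1.5-fold for Dusp6 (2.18 without Basal 3).

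Among transcription factors that receive these signals, more fell than rose. Of 19 genes of the CREB, MEF2 and SRF families and their partners, 3 rose and 10 fell (median -0.41). The 3 that rose were Srf, the serum response factor, at 238, 227 and 255 in Basal and 811, 823 and 607 in Late (1.63 ± 0.21, adjusted p = 2.51e-05), Atf1, a CREB relative (1.45), and Crtc2, a CREB coactivator (0.40, and -0.43 with the same total). Mef2a, which restrains synapse number, was at 639, 638 and 576 in Basal and 269, 233 and 299.8 in Late (-1.21 ± 0.16, adjusted p = 3.38e-05). Creb1 fell by 0.83 and the SRF partners Elk3 and Elk1 by 1.49 and 1.16 on the log2 scale. The call was lost on leaving out a library for Crtc2 (0.29 to 0.42 without Late 1, Late 2, Late 3, Basal 1 or Basal 2).

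Of 12 genes of activin and neurotrophin signalling, 2 rose and 2 fell (median -0.28), where 25.4% of all genes rose and 23.6% fell. Inhbb, the activin B subunit, rose from 3.89, 13.5 and 7.89 in Basal to 151, 123 and 102 in Late, 14.5-fold (3.86 ± 0.36, adjusted p = 1.47e-06), while Inhba fell as given above. Ngfr, the p75 neurotrophin receptor, rose by 1.48. Ntf3, neurotrophin 3, fell by 1.90 and Acvr2a, an activin receptor, by 0.66 on the log2 scale.

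Of 21 cAMP signalling genes, 8 rose and 5 fell (median 0.17, with 2 higher and 14 lower at the same total). Among all genes tested the shares were 25.4% and 23.6%. Pde1a, a phosphodiesterase stimulated by calmodulin, rose 5.89-fold, from 398, 267 and 481 to 2473, 2161 and 2140.3 normalized counts (adjusted p = 4.85e-07). The cyclase gene Adcy5 rose 5.07-fold, from 319, 309 and 631 to 2481, 2399 and 1534 (adjusted p = 2.01e-05), whereas Adcy1, the calmodulin-stimulated cyclase, fell by 0.74 and the phosphodiesterase gene Pde7b by 1.33 on the log2 scale. The others that fell were Pde8b, Prkacb and Prkar2b. Of 22 receptors of neuromodulators, 8 rose and 1 fell (median 0.47, with 3 higher and 9 lower at the same total). Chrm3, a muscarinic receptor coupled to Gq, had 145, 120.1 and 236 in Basal and 973, 954 and 684 in Late (2.36 ± 0.23, adjusted p = 2.02e-06). The noradrenaline receptor genes Adra2a (1.67) and Adra1d (1.41) and the serotonin receptor genes Htr1b (1.53) and Htr1a (1.36) rose. Htr4, a serotonin receptor coupled to Gs, was the 1 that fell, from 247, 329 and 181 to 73.3, 80.6 and 92.4 (adjusted p = 8.47e-05). Single libraries ended the call of Htr1b (1.38 to 1.68 without any of the 6).

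Glutamate receptor genes changed in both directions, where 25.4% of all genes rose and 23.6% fell. Of 7 NMDA receptor subunits none rose and 3 fell, Grin2b (-0.41), Grin2a (-0.51) and Grin3b (-1.18), with a median of -0.41. Of 14 genes of AMPA receptors and their partners, 3 rose and 3 fell (median -0.09), no larger shares than in all genes. The auxiliary subunit genes Cacng8 (1.15) and Cacng2 (0.59) and the subunit gene Gria1 (0.36) rose, although Cacng2 and Gria1 were lower with the same total (-0.27 and -0.49). Gria2 (-0.39, but 0.29 with GC correction) and the auxiliary genes Cnih3 (-0.39) and Shisa9 (-1.18) fell. Of 14 kainate and metabotropic receptor genes, 7 rose and 3 fell (median 0.23, with 2 higher and 8 lower at the same total). Grik4, a high affinity kainate subunit typical of CA3, was at 491, 655 and 549.5 in Basal and 1875, 1860.0 and 1605 in Late (1.65 ± 0.19, adjusted p = 8.04e-06). Neto1, an auxiliary protein of kainate receptors, was at 529.8, 461 and 650.0 and 1414, 1509 and 1446 (1.41 ± 0.16, adjusted p = 8.19e-06). The pore-forming subunit genes Grik2 (-1.42) and Grik1 (-1.62) and the presynaptic receptor gene Grm2 (-1.43) fell, so kainate subunits moved in both directions. Leaving out 1 library ended the call of Grin2b (-0.39 to -0.36 without Late 1, Late 2 or Basal 2), Grin3b (-1.36 to -1.04 without Late 1, Late 2, Late 3, Basal 1 or Basal 2) and Cacng2 (0.45 to 0.57 without Late 1, Late 2 or Basal 1). With 1 library left out, the call was lost for Gria1 (0.34 to 0.37 without Late 1, Late 2, Late 3 or Basal 1), Gria2 (-0.42 to -0.32 without Late 1, Late 2, Late 3, Basal 1 or Basal 2) and Cnih3 (-0.44 to -0.31 without Late 1, Late 2, Basal 1, Basal 2 or Basal 3).

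Subunits of GABA-A receptors, the main inhibitory receptors, were mostly lower. Of 12 tested, 1 rose and 7 fell (median -0.85). With GC correction the counts were 2 and 3. Gabrd and Gabra4, which form extrasynaptic receptors of granule cells, fell by 1.73 and 1.41 on the log2 scale. Gabra3 rose, from 166, 106 and 156 to 556, 509 and 439.8 (1.81 ± 0.24, adjusted p = 2.63e-05). Gabra4 overlaps Gabrb1 on the opposite strand, which was 1.89 times as abundant.

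Of 37 potassium channel genes, 11 rose and 11 fell (median -0.08), where 25.4% of all genes rose and 23.6% fell. The gene with the smallest p was Kcnq5, a subunit of the M current that damps repeated firing, at 205, 172 and 211 in Basal and 1058, 1133 and 902 in Late (2.39 ± 0.14, adjusted p = 5.34e-08). Kcnk2, the leak channel TREK-1, was at 203, 165 and 199 and 1591, 1428 and 767 (2.73 ± 0.30, adjusted p = 5.69e-06), with Late 3 the lowest of the Late libraries. Kcnn2, a calcium-activated channel of the afterhyperpolarization, rose by 1.34. Kcnip4, a partner of A-type channels, and Kcnk1, another leak channel, fell by 1.50 and 1.38 on the log2 scale. Of 27 sodium, calcium and related cation channel genes, 14 rose and 4 fell (median 0.45, with 2 higher and 13 lower at the same total). The T-type calcium channel genes Cacna1g, from 988, 834 and 1712 to 4313, 4468 and 3488 (adjusted p = 1.89e-05), and Cacna1i, from 614, 557 and 658 to 1541, 1668 and 1563 (adjusted p = 1.47e-06), rose, while Cacna1h, of the same type, fell by 0.39. Scn4b, a sodium channel beta subunit, rose by 1.66. The other 3 that fell were Scn3a, a sodium channel of immature neurons (-0.89), Cacna2d1 (-0.89) and Cacnb4 (-0.47, but 0.02 with GC correction). Without 1 of the 6 libraries, a call ended for Cacna1h (-0.42 to -0.34 without Late 1, Late 2, Late 3, Basal 2 or Basal 3).

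Most genes of the synapse that passed were higher in Late. Of 30 presynaptic release genes, 19 rose and 2 fell (median 0.67, with 6 higher and 11 lower at the same total), and of 25 genes of postsynaptic scaffolds and calmodulin-dependent kinases 15 rose and 3 fell (0.76, with 4 higher and 11 lower at the same total). Cplx2, complexin 2, which clamps vesicle fusion, was at 1947, 2227 and 2241 in Basal and 10825, 8823 and 6509 in Late (2.03 ± 0.23, adjusted p = 8.48e-06), and Cplx3 at 28.5, 25.8 and 24.4 and 150.1, 111 and 161 (2.43 ± 0.28, adjusted p = 8.43e-06). Rims1, an active zone scaffold, rose by 1.94, Stx1a, a SNARE protein, by 1.89 and Slc17a7 by 1.24. Doc2b, a calcium sensor, and Syn3, a synapsin, were the 2 that fell, Doc2b from 471 ± 46.5 to 236 ± 2.06 normalized counts (mean ± SD, n = 3 each) and Syn3 by 1.07 on the log2 scale. On the postsynaptic side Shank1 was at 5428, 5203 and 8342 and 17245, 16871 and 13612 (1.33 ± 0.19, adjusted p = 5.07e-05), Dlgap3, its binding partner, at 527, 535 and 831 and 1755, 1865 and 1547 (adjusted p = 8.22e-05), and Camk4, the nuclear kinase of CREB, at 415, 364 and 511 and 1239, 1322 and 1010.4 (adjusted p = 5.86e-05). Homer3 and Shank3 rose by 1.55 and 1.18, and the 3 that fell were Dlg2 (-0.51), Baiap2 (-0.53) and Camkk1 (-0.78).

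Cell adhesion genes changed in both directions, where 25.4% of all genes rose and 23.6% fell. Of 21 genes of synaptic adhesion, 9 rose and 6 fell (median 0.05, with 2 higher and 13 lower at the same total). With GC correction 7 were higher and 7 lower. The phosphatase receptor gene Ptprf, which is presynaptic, rose by 1.26. The postsynaptic partners Lrrtm4, at 1755, 1972 and 1252 in Basal and 474, 478 and 480.0 in Late (-1.80 ± 0.20, adjusted p = 7.94e-06), Lrrtm2 (-1.47) and Il1rapl1, at 484, 603 and 365 and 50.4, 54.2 and 105 (-2.77 ± 0.33, adjusted p = 1.09e-05), fell. Clustered protocadherins, which give each neuron a surface identity, were lower as a family. Of 26 tested, none rose and 19 fell (median -0.87), over a range of -2.29 to -0.03 on the log2 scale. With GC correction none rose and 15 fell. Pcdhgb1 was at 198, 241 and 225 in Basal and 28.8, 46.2 and 58.8 in Late (-2.29 ± 0.33, adjusted p = 6.7e-05), and Pcdhga8 at 284, 235 and 228 and 97.3, 91.2 and 95.3 (adjusted p = 4.85e-05). Pcdhgb4 and Pcdha9, at 68.1 ± 5.13 and 67.9 ± 10.7 in Late against 207 ± 14.4 and 159 ± 6.57 in Basal (mean ± SD, n = 3 each), fell 3.04-fold and 2.34-fold. Members of the alpha cluster share their last exons, as do those of the gamma cluster, so the split of reads between them by the counting is uncertain.

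Most motor protein genes of axonal transport rose. Of 21 genes of kinesins, dynein and their adaptors, 17 rose and 1, Kif2a, a microtubule depolymerase, fell (-0.64), with a median of 0.92. Kif21b, a kinesin that pauses microtubule growth, was at 997, 880.0 and 1849 in Basal and 5583, 5608 and 4368 in Late (2.06 ± 0.24, adjusted p = 1.21e-05). Kif5a, a heavy chain of conventional kinesin, was at 1867, 1509 and 2445 and 5677, 5345 and 4634 (adjusted p = 2.22e-05), and the light chains Klc1 and Klc2 rose 2.91-fold and 2.97-fold. Dctn1, the large dynactin subunit, rose by 1.53. With the same total, 6 of these genes were higher and 6 lower. Among 20 tubulins and axon growth proteins, 10 rose and 2 fell (median 0.43, with 5 higher and 10 lower at the same total). Stmn2, a stathmin of growing axons, had 180.1, 94.3 and 205 in Basal and 873, 823 and 729 in Late (2.33 ± 0.26, adjusted p = 6.05e-06), and Stmn3 394, 325 and 428 and 1164, 1028 and 1166 (adjusted p = 1.81e-06). Gap43 and Basp1, growth cone proteins, rose by 1.84 and 1.71. The tubulin genes Tuba1b and Tubb2b fell (-1.90 and -0.92).

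Among 33 axon guidance genes, 19 rose and 4 fell (median 0.45, with 7 higher and 16 lower at the same total). Sema3a, a secreted repellent of axons, had the largest rise of the list, from 86.8, 106 and 100.4 in Basal to 2007, 1598 and 832 in Late, 15.1-fold (3.92 ± 0.31, adjusted p = 3.46e-07), and its lowest Late library, Late 3, was still far above Basal. Among receptors, Ephb2, which also binds NMDA receptors, was at 483, 504 and 518 and 4078, 3457 and 2682 (2.76 ± 0.20, adjusted p = 1.64e-07), and Epha5 at 1911, 1729 and 1912 and 11069, 9723 and 7508 (2.35 ± 0.15, adjusted p = 6.7e-08). The netrin receptor gene Dcc was at 508, 596 and 667 and 4266, 3680.4 and 2986 (2.62 ± 0.22, adjusted p = 6.52e-07), and Efna5, an ephrin ligand, rose by 2.82. The 4 that fell were Epha7 (-1.40), Sema6d (-0.95), Plxna4 (-0.88) and Robo2 (-0.51). Relative to the other groups, Sema3a, Ephb2 and Epha5 were also higher in Late than in Early (3.86, 2.63 and 1.89) and than in Reactivated (3.47, 2.03 and 1.99), with adjusted p of 4.74e-07, 2.83e-07 and 4.03e-07 against Early and 2e-06, 4.29e-06 and 5.27e-07 against Reactivated. In those comparisons, which share the Late libraries, 42.3% and 22.6% of all genes passed. The call was lost on leaving out a library for Robo2 (-0.47 to -0.36 without Late 1 or Basal 2).

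**Figure D3:**
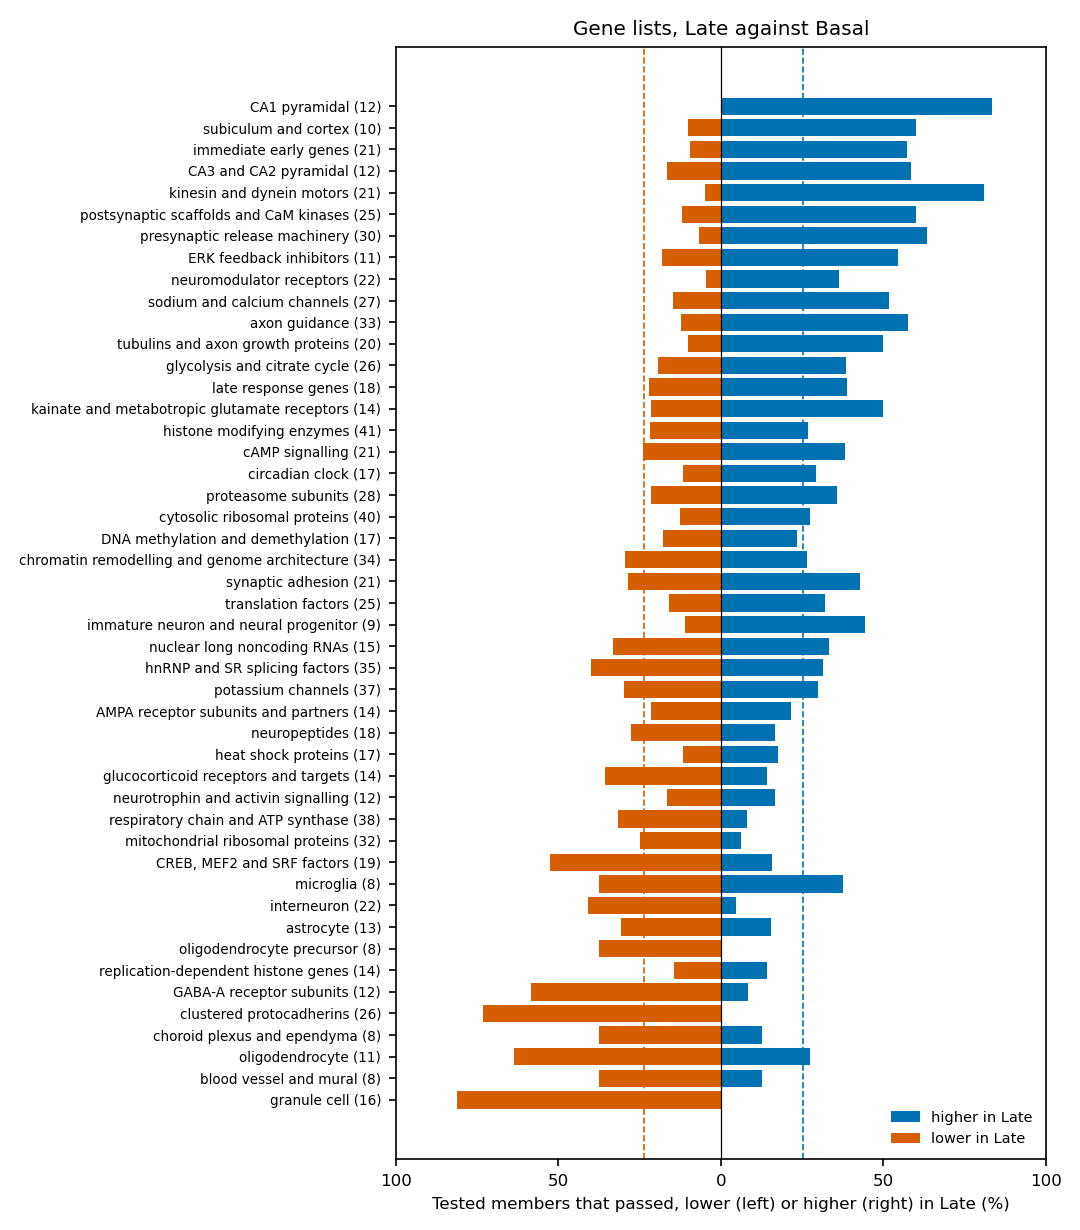
For each gene list shown (number of tested members in brackets), the blue bar gives the percentage of tested members that rose in Late. The orange bar gives the percentage that fell. NMDA receptor subunits, tissue-restricted genes, developmental factors and structural small RNAs are not drawn. Dashed lines mark the percentages of all genes tested, 25.4% and 23.6%; a rise is relative to the median of all genes, and at the same total for each library 6 motor genes rose and 6 fell. The lists shown are ordered by median log2 fold change, from CA1 pyramidal markers at 1.62 to granule cell markers at -2.82.

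Most of the small nucleolar RNAs tested, which guide the modification of ribosomal RNA and are mostly cut out of introns of other genes, were higher in Late. Of 96 snoRNA genes tested, 76 rose and 2 fell, where 25.4% of all genes rose. Since a gene can pass the filter through the Late libraries alone, these counts and those of the host pairs hold only for the genes tested. Of 64 that lie on the same strand inside a tested protein-coding gene, 51 rose and 1 fell (median 2.14), while of their 50 host genes 11 rose and 14 fell (median -0.04). In 58 of the 64 the snoRNA gene had the higher log2 fold change of the pair. The sequences of 2 such genes, from GENCODE M21 (GRCm38), are shown because both rose far more than their hosts. Capitals mark the C box and D box of Snord33, the elements that hold the methylation guide, and the last ACA of Snora65, the box of the pseudouridylation guides 3 bases before the end. Both were chosen after their values were seen.
Snord33 (chr7:45126864-45126947, minus strand): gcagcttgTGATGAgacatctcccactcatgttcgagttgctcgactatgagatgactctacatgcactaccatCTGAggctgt
Snora65 (chr2:32963291-32963420, plus strand): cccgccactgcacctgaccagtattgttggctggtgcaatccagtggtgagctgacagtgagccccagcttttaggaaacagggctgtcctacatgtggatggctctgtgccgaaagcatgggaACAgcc

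Snord33, in an intron of the ribosomal protein gene Rpl13a, had 16.8, 14.6 and 46.6 normalized counts in Basal and 2809, 2548 and 4687 in Late (6.90 ± 0.54, adjusted p = 3.39e-07), while Rpl13a changed by 0.55 (and by -0.26 with the same total). Snora65, in Rpl12, had 42.7, 71.8 and 81.1 in Basal and 3187, 3025 and 5199.5 in Late (5.84 ± 0.56, adjusted p = 2.02e-06), while Rpl12 was at 0.21 ± 0.22 and did not pass (adjusted p = 0.443). Late 3, the lowest Late library for most genes that rose, was the highest for both. Snora23 rose by 3.79, from 646, 782 and 1640.0 to 12299, 14124 and 16021, in the importin gene Ipo7, which fell by 1.11. Scarna2, a guide RNA of Cajal bodies, was at 14.2, 32.5 and 54.5 and 1155, 1218 and 1102 (5.01 ± 0.45, adjusted p = 1.06e-06). Rpph1, the RNA of the enzyme that trims transfer RNAs, was at 2292, 1880.0 and 4766 and 44605, 44832 and 16331 (3.56 ± 0.45, adjusted p = 2.28e-05), and Rn45s rose 8.01-fold (3.00 ± 0.45, adjusted p = 8.87e-05). The library kit depletes ribosomal cDNA, and whether depletion differed between libraries was not tested. Single libraries ended the call of Rpl13a (0.42 to 0.59 without Late 1, Late 2, Late 3, Basal 1 or Basal 2), and so did GC correction (0.42). The fold change moved by over 1.5-fold with 1 library left out for Snord33 (7.73 without Basal 3) and Rn45s (3.70 without Basal 3).

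More microRNA genes inside a host gene fell than rose. Of 159 tested, 32 (20.1%) rose and 42 (26.4%) fell (median -0.35), near the 25.4% and 23.6% of all genes. Here too a gene can pass the filter through the libraries of a single group, so the counts hold only for the genes tested. Of 78 inside a tested host gene, 7 rose and 32 fell (median -1.67), whereas of their 76 hosts 39 rose and 11 fell (median 0.48), and in 59 pairs the microRNA gene had the lower log2 fold change. A few microRNA genes rose strongly. The mature RefSeq sequences of 4 of them follow, 5′ to 3′, with the seed (bases 2 to 8), by which a microRNA finds its targets, in capitals. No seed is shared between them. These genes were chosen after their values were seen, and the table holds 1 count per gene, which does not separate hairpin and mature arms.
miR-137-5p: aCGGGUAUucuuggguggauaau
miR-137-3p: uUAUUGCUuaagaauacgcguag
miR-9-5p: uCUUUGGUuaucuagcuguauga
miR-9-3p: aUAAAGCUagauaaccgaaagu
miR-6516-5p: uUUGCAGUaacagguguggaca
miR-6516-3p: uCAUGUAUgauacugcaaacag
miR-3068-5p: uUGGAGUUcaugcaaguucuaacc
miR-3068-3p: gGUGAAUUgcaguacuccaaca

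Mir137, a brain microRNA that acts on synaptic and chromatin genes, had 5.18, 4.49 and 5.02 normalized counts in Basal and 101, 106 and 81.2 in Late (4.25 ± 0.50, adjusted p = 1.1e-05). Mir9-1, which encodes the neuronal miR-9, had 6.48, 8.98 and 10.8 in Basal and 31.2, 48.9 and 45.8 in Late (2.22 ± 0.50, adjusted p = 0.00229). Mir6516 was at 19.4, 13.5 and 21.5 and 1250.2, 1319.7 and 986 (6.00 ± 0.40, adjusted p = 9.57e-08), and Mir3068 at 19.4, 15.7 and 48.1 and 2007, 1778 and 3101 (6.27 ± 0.47, adjusted p = 2.54e-07). Of these 4, Mir137 and Mir9-1 were the lower in both groups. Mir6352, inside the ephrin receptor gene Epha4, fell from 47.3 ± 7.75 to 3.46 ± 0.595 normalized counts (mean ± SD, n = 3 each, log2 fold change -3.74 ± 0.47, adjusted p = 2.05e-05), while Epha4 was at -0.33. Reads over a snoRNA or microRNA gene also lie in its host, and how the counting assigned them is not given in the sources used here. A single library moved the fold change by over 1.5-fold for Mir3068 (7.03 without Basal 3).

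**Figure D4:**
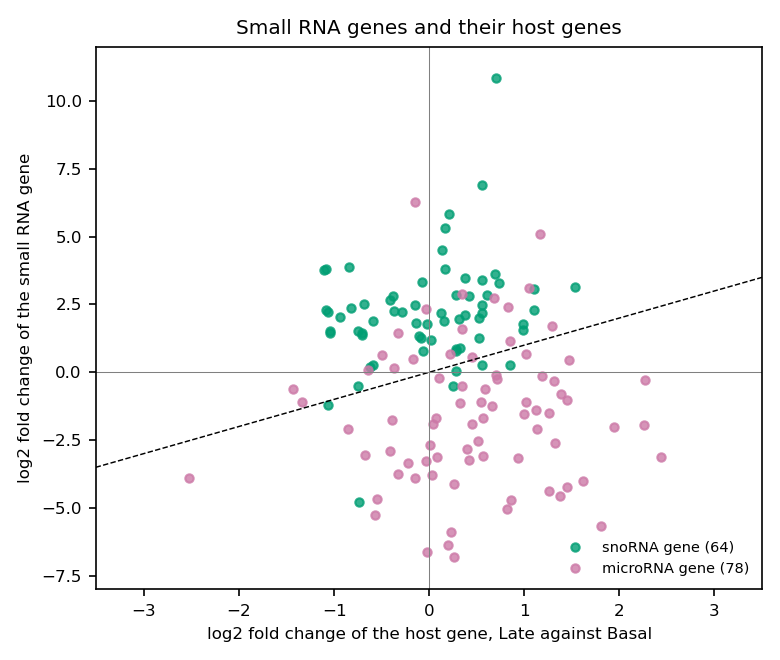
Each point pairs a small RNA gene with the protein-coding gene it lies in: the x axis is the log2 fold change (Late against Basal) of the host, the y axis that of the small RNA gene, and the dashed line marks equal change. Of 64 snoRNA genes (green) 58 lie above the line, and of 78 microRNA genes (pink) 59 lie below it.

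Of 969 long noncoding RNA genes, 153 rose and 356 fell (median -0.60). In the list of 15 abundant nuclear ones, 5 rose and 5 fell (median -0.03). Kcnq1ot1, the RNA of an imprinted cluster, had the largest drop in normalized counts of any gene named, from 91463, 95565 and 97116 in Basal to 38842, 38055 and 41732 in Late (-1.26 ± 0.12, adjusted p = 2.14e-06). Neat1, the scaffold of paraspeckles, was at 169.7, 198 and 165 and 60.0, 34.3 and 42.0 (-1.96 ± 0.26, adjusted p = 3.06e-05). Dlx6os1 (-1.41), Pvt1 (-0.59) and Peg13 (-0.55) fell too. The 5 that rose were Gas5 (1.66) and Mirg (0.96), which host snoRNAs and microRNAs, Snhg11 (1.22), Meg3 (0.66) and Miat (0.51), of which Meg3 and Miat were lower with the same total (-0.18 and -0.32). Leaving out 1 library ended the call of Pvt1 (-0.52 to -0.50 without Late 1 or Basal 2), Peg13 (-0.48 without Late 1) and Miat (0.44 without Basal 2).

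Splicing factors split by gene. Of 35 hnRNP, SR and neuronal splicing factors, 11 rose and 14 fell (median -0.05). With GC correction, 11 were higher and 6 lower. Hnrnpd was at 759, 742 and 603 in Basal and 2979.5, 2955 and 1739.7 in Late (1.87 ± 0.19, adjusted p = 2.86e-06) and Hnrnpu, a scaffold of nuclear RNA, at 4002, 4473 and 6386 and 21728, 20307 and 12817 (adjusted p = 2.76e-05). Hnrnpa3 was at 609, 631 and 357 and 92.5, 96.4 and 131 (-2.31 ± 0.28, adjusted p = 1.59e-05), and the SR protein genes Srsf10 and Srsf1 fell by 1.17 and 1.06 on the log2 scale.

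Chromatin genes rose and fell in shares near those of all genes tested, of which 25.4% rose and 23.6% fell. Of 41 histone modifying enzymes, 11 rose and 9 fell (median 0.20, with 3 higher and 28 lower at the same total). The class IIa deacetylase genes Hdac9, from 500.0, 452 and 736 to 2708, 2433 and 2398 (2.15 ± 0.18, adjusted p = 7.34e-07), Hdac4 (1.55) and Hdac5 (1.41) rose. The H3K36 methyltransferase gene Setd2 (-0.91), the demethylase genes Kdm5a (-0.83) and Kdm6a (-1.06) and the H3K27 methyltransferase gene Ezh2 (-1.38) fell. Of 34 genes of chromatin remodelling and genome architecture, 9 rose and 10 fell (median 0.06, with 4 higher and 25 lower at the same total). With GC correction 12 were higher and 6 lower. Yy1, a factor that joins enhancers and promoters, was at 183, 146 and 226 in Basal and 1237, 1203 and 798 in Late (2.54 ± 0.22, adjusted p = 7.09e-07). Chd5, a neuronal remodeller, was at 2687, 2447 and 5285 and 19134, 18065 and 12864 (adjusted p = 2.08e-05), and Arid1b, a subunit of the BAF complex, at 1669, 1864 and 2057 and 6969, 6779.5 and 4257 (adjusted p = 2.59e-05). The cohesin genes Nipbl and Stag1, a loader and a subunit, fell by 1.10 and 0.92 on the log2 scale.

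Of 17 genes of DNA methylation and demethylation, 4 rose and 3 fell (median 0.08, with 2 higher and 9 lower at the same total). Among all genes tested 25.4% rose and 23.6% fell. Mbd3 (1.76 ± 0.25, adjusted p = 5.06e-05) and Mbd2 (1.39 ± 0.19, adjusted p = 4.75e-05), of the NuRD complexes, and the methyltransferase genes Dnmt3a (0.81) and Dnmt1 (0.52) rose, although Dnmt3a and Dnmt1 were lower with the same total (-0.03 and -0.32). Mbd5 (-0.83), Uhrf2 (-0.41) and the dioxygenase gene Tet2 (-0.40) fell. Of 35 histone genes, 14 had enough counts for the test, of which the linker genes Hist1h1c (1.53) and Hist1h1e (1.17) rose and Hist3h2a (-0.98) and Hist1h2bc (-2.21) fell. With 1 library left out, the call was lost for Dnmt1 (0.45 to 0.47 without Late 1, Late 2, Basal 1 or Basal 2), Uhrf2 (-0.40 to -0.30 without Late 1, Late 2 or Basal 1) and Hist1h2bc (-2.11 to -1.72 without Late 2 or Basal 1).

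Genes of protein synthesis rose and fell, as did 25.4% and 23.6% of all genes. Of 40 cytosolic ribosomal protein genes, 11 rose and 5 fell (median 0.15). At the same total 0 were higher and 22 lower, and with GC correction 7 and 7. Rps15 had the largest rise, at 0.99. Among those that fell were Rpl15 (-1.24), Rps12 (-1.09), Rps2 (-0.59) and Rps6 (-0.54). These genes have many processed copies, so their counts are uncertain. Of 25 translation factors, 8 rose and 4 fell (median 0.05, with 1 higher and 18 lower at the same total). Eif5b, which joins ribosomal subunits, rose from 906, 914 and 1173 to 2683, 2436 and 2142 (adjusted p = 5.68e-05) and Eif3a by 1.15. Eif4e, the cap-binding protein, fell from 333, 302 and 258 to 118, 102 and 151 (adjusted p = 7.65e-05), with Eif1 (-0.92), Eif4a2 (-0.71) and Eif4g2 (-0.67). Without 1 of the 6 libraries, a call ended for Rps2 (-0.44 without Basal 3).

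Of 38 nuclear genes of the respiratory chain and ATP synthase, 12 fell and 3 rose (median -0.32), and of 32 mitochondrial ribosomal protein genes 8 fell and 2 rose (-0.36). Of all genes 23.6% fell and 25.4% rose. The share of the mitochondrial ribosomal protein genes that fell was near that of all genes. In both lists the share that rose was lower than in all genes. Uqcrb, of complex III, fell by 1.85 on the log2 scale, and Ndufs4, of complex I, from 142, 185 and 173 to 58.8, 80.6 and 77.5 (adjusted p = 0.000701). Among those that rose were Sdhb (0.57) and Ndufv1 (0.49), which were both lower with the same total (-0.25 and -0.33). Among mitochondrial ribosomal proteins, Mrpl16 (-1.56) and Mrpl39 (-1.19) fell and Mrps5 (1.09) and Mrpl4 (0.57, and -0.24 with the same total) rose. Of 26 genes of glycolysis and the citrate cycle, 10 rose and 5 fell (median 0.26, with 2 higher and 15 lower at the same total). Suclg2, a subunit of succinyl-CoA ligase, was at 141, 128 and 138 in Basal and 7257, 5949 and 2948 in Late (5.31 ± 0.45, adjusted p = 6.78e-07). Eno1, an enolase, fell from 64 raw counts over the Basal libraries to 3 over the Late libraries (adjusted p = 0.000184), and the others that fell were Aldoa, Cs, Sucla2 and Fh1. Pkm, pyruvate kinase, rose by 1.29. Eno1 has a near-identical copy in the genome, so its counts are uncertain, and no fold is given at so few. Of 28 proteasome subunits, 10 rose and 6 fell (median 0.16, with 0 higher and 16 lower at the same total), from Psmc2 at 1.36 to Psma6 at -1.43. The call was lost on leaving out a library for Sdhb (0.39 to 0.59 without Late 1, Late 2, Late 3, Basal 1 or Basal 2), Ndufv1 (0.41 to 0.51 without Late 1, Late 2, Late 3, Basal 1 or Basal 2) and Mrpl4 (0.44 to 0.65 without Late 1, Late 2, Late 3, Basal 1 or Basal 2). Single libraries ended the call of Psma6 (-1.14 without Basal 2).

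Of 17 heat shock genes, 3 rose and 2 fell (median -0.14), and with GC correction 6 were higher and 2 lower. Without that correction the following genes passed. Hspa2 (1.22), Hsp90ab1 (1.11) and Hsp90aa1 (0.41, and -0.41 with the same total) rose, and Hspe1 (-0.94) and Dnaja1 (-0.50) fell. Of 17 clock genes, 5 rose and 2 fell (median 0.16, with 1 higher and 11 lower at the same total). Rorb (3.27), Rora (1.05), Npas2 (0.95), Cry2 (0.75, and -0.09 with the same total) and Tef (0.50, and -0.35) rose. Nr1d2, the repressor REV-ERB beta, fell from 478, 432 and 291 to 165, 184 and 176 (adjusted p = 0.000202) and Hlf by 1.08. The time of day of the collections is not given in the sources used here. Leaving out 1 library ended the call of Hsp90aa1 (0.29 to 0.46 without Late 1, Late 2, Late 3, Basal 1 or Basal 2), Hspe1 (-0.85 to -0.83 without Late 1 or Late 2) and Dnaja1 (-0.41 without Late 2).

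Stress hormone genes were mixed. Of 14 glucocorticoid receptors and target genes, 2 rose and 5 fell (median -0.28). Pdk4, a kinase that turns off pyruvate dehydrogenase, was at 41.5, 66.2 and 71.0 in Basal and 1803, 1476 and 1030.0 in Late, 23.7-fold higher (4.57 ± 0.31, adjusted p = 9.57e-08), and Tsc22d3, a glucocorticoid-induced leucine zipper protein, rose by 1.27. The receptor genes Nr3c1 (-0.95) and Nr3c2 (-0.49), the metallothionein genes Mt1 (-1.66) and Mt2 (-1.43) and the kinase gene Sgk1 (-0.44) fell. Of 18 neuropeptide genes, 3 rose and 5 fell (median -0.13). The granin genes Chga, from 644, 629 and 705 to 2178, 2087 and 1658 (adjusted p = 2.19e-06), and Chgb, from 2752, 2476 and 1966 to 6018, 6071 and 5525 (adjusted p = 4.3e-05), and Nts, neurotensin (2.12), rose. Vip, from 192, 282 and 171 to 7.21, 15.9 and 16.8 (-3.99 ± 0.40, adjusted p = 2.57e-06), Pdyn, prodynorphin (-3.34), the tachykinin genes Tac1 (-2.53) and Tac2 (-2.25) and Crh (-1.47) fell. With 1 library left out, the call was lost for Nr3c2 (-0.45 to -0.40 without Late 2 or Basal 1), Mt1 (-1.77 to -1.29 without Late 2, Late 3, Basal 1 or Basal 2) and Mt2 (-1.49 to -1.22 without Late 2, Late 3, Basal 1, Basal 2 or Basal 3). Without 1 of the 6 libraries, a call ended for Sgk1 (-0.47 to -0.38 without Late 1, Late 2, Late 3, Basal 1 or Basal 2), Nts (1.76 to 2.26 without Late 2, Late 3, Basal 2 or Basal 3) and Tac1 (-2.96 to -2.22 without any of the 6). The call was lost on leaving out a library for Tac2 (-1.85 to -1.83 without Late 1 or Basal 2) and Crh (-1.54 to -1.01 without Late 1, Late 3 or Basal 2). The fold change moved by over 1.5-fold with 1 library left out for Pdyn (-3.94 without Late 1).

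Granule cell markers were lower and CA1 markers higher in Late. Of 16 granule cell markers none rose and 13 fell (median -2.82). Prox1, the homeobox factor that defines granule cells, was at 1543, 1861 and 1504 normalized counts in Basal and 110.5, 129 and 119 in Late (-3.77 ± 0.36, adjusted p = 1.94e-06), and Dock10 at 2687, 3246 and 1749 and 241, 233 and 229.7 (-3.45 ± 0.32, adjusted p = 1.5e-06). Dsp and Lct fell by 3.77 and 3.30 on the log2 scale, and Tdo2 from 41 raw counts over the Basal libraries to 1 (adjusted p = 0.0031). The sum of the list was 13048 to 19598 in the Basal libraries and 4191 to 6104 in the Late ones, without overlap. Of 12 CA1 markers 10 rose and none fell (median 1.62). Gpr161, an orphan receptor, was at 68.7, 56.1 and 95.4 and 354, 423 and 425 (2.43 ± 0.20, adjusted p = 5.99e-07), and Man1a at 231, 131 and 343 and 1337, 1299 and 972. Lefty1 and Pou3f1 rose by 2.59 and 2.51. The summed CA1 list was 1112 to 1545 in Basal and 3914 to 4541 in Late. The part of these neuron types in the changes of other genes was not tested.

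Of 12 CA3 and CA2 markers, 7 rose and 2 fell (median 0.97, with 4 higher and 4 lower at the same total). Hs3st4, a sulfotransferase, was at 175, 176 and 292 in Basal and 1595, 1427 and 1100.0 in Late (2.67 ± 0.26, adjusted p = 1.97e-06), and Tyro3, a receptor kinase, at 268, 223 and 395 and 1099, 1107 and 1096 (adjusted p = 2.64e-06). Pvrl3 rose by 2.61, and Cacng5 (-1.06) and Elavl2 (-0.49, but 0.10 with GC correction) fell. Subicular and cortical markers numbered 10, of which 6 rose and 1, Tbr1, fell (-0.81), with a median of 1.06 (1.59 above that of all genes without Basal 3). Rorb, Foxp2 and Bcl11b rose by 3.27, 2.75 and 2.62. Of 22 interneuron markers 9 fell and 1, the cannabinoid receptor gene Cnr1, rose (0.96), with a median of -0.52. Adarb2 was at 1400.4, 1724 and 1639 and 727, 676 and 657 (-1.21 ± 0.13, adjusted p = 6.53e-06), and Erbb4 and Gad1, the GABA-synthesizing enzyme, fell by 1.82 and 1.08. The summed interneuron list was 6606 to 8019 in Basal and 4337 to 4528 in Late. Single libraries ended the call of Cacng5 (-1.03 to -0.98 without Late 1, Late 2, Basal 1 or Basal 3) and Elavl2 (-0.56 to -0.44 without Late 1, Late 2, Late 3, Basal 1 or Basal 2).

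Of 9 markers of immature neurons and progenitors tested, 4 rose and 1 fell (median 0.02, with 1 higher and 2 lower at the same total). Eomes, a factor of intermediate progenitors, was at 20.7, 39.3 and 51.7 in Basal and 448, 355 and 318 in Late (3.28 ± 0.43, adjusted p = 2.94e-05). Neurod1 (1.36), Sox4 (1.12) and Sox11 (0.73, and -0.13 with the same total) rose too. Mki67, the marker of dividing cells, fell from 131, 177 and 108 to 26.4, 23.8 and 29.9 (adjusted p = 7.38e-05).

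The sort was for neurons, and markers of other cells differed between Late and Basal as well. More oligodendrocyte and precursor markers fell than rose, and the summed astrocyte, precursor and choroid plexus markers were lower in Late without overlap. For astrocytes and choroid plexus this rested on a single gene each, Slc4a4 and Ttr, without which the sums overlapped. Among 8 tested microglia markers, 3 rose and 3 fell (median -0.42). Itgam was at 242, 299 and 312 in Basal and 4505, 3733 and 3224 in Late (3.74 ± 0.29, adjusted p = 2.88e-07) and Cx3cr1 at 284, 346 and 361 and 5181, 3962 and 2381 (3.54 ± 0.32, adjusted p = 1.22e-06), with Aif1 at 1.32. P2ry12, at 72.5, 52.8 and 54.5 and 15.6, 9.25 and 19.6 (adjusted p = 0.00742), and Csf1r (-1.47) fell, and they have a gene of 38.8 and 10.3 times their abundance on the opposite strand. Tmem119, Trem2, C1qa and C1qb had too few counts for the test. The summed list was 749 to 839 in Basal and 5694 to 9789 in Late, nearly all of it from Itgam and Cx3cr1. Of 11 oligodendrocyte markers tested, 3 rose and 7 fell (median -1.19), where 23.6% of all genes fell, while the summed list was 2881 to 3768 in Basal and 5083 to 10297 in Late. Mobp rose by 1.02 and Mbp by 0.67 (and -0.18 with the same total), while St18, at 608, 695 and 588 and 217, 182 and 181, and Mog, at 35.0, 32.5 and 20.8 and 6.00, 7.93 and 4.67, fell. The remaining oligodendrocyte marker that rose, not named here, had the largest log2 fold change of the list (3.21). The part of each of these markers in the higher sum is not given here. Leaving out 1 library ended the call of Aif1 (0.97 to 1.43 without Late 1, Late 2, Late 3, Basal 1 or Basal 2), Csf1r (-1.37 without Late 1) and Mbp (0.54 to 0.67 without Late 1, Late 2 or Basal 2). A single library moved the fold change by over 1.5-fold for Aif1 (2.33 without Basal 3).

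Of 13 astrocyte markers, S100b (1.60) and Gpc5 (1.43) rose and Slc4a4 (-2.50), Fgfr3 (-1.13), Aldoc (-0.96) and Slc1a2 (-0.87) fell, with a median of -0.70 and a sum of 5447 to 8812 in Basal and 4270 to 5072 in Late. Slc4a4 was at 2125, 2514 and 1984 in Basal and 426, 366 and 377 in Late, and without it the astrocyte sums overlapped. Of 8 precursor markers, Pdgfra (-2.17), Gpr17 (-1.82) and Vcan (-1.26) fell, and the sum was 398 to 603 in Basal and 224 to 263 in Late. Of 8 tested vessel markers, Flt1 (-3.02), Vtn (-2.97) and Tek (-2.13) fell. The other 4 of that list, Cldn5, Cdh5, Kcnj8 and Ly6c1, had too few counts for the test. Mmrn2, a matrix protein of vessels, rose 112-fold, from 73.8, 93.2 and 80.3 to 12216, 11379 and 4109 (6.80 ± 0.47, adjusted p = 1.19e-07), and made up nearly all of the summed list in Late (4341 to 12426, against 311 to 850 in Basal). Of 8 markers of choroid plexus and ependyma, Otx2 (-2.76), Ttr (-2.28) and Ccdc153 (-1.81) fell and Kl rose (0.76, and -0.11 with the same total), with a sum of 1323 to 2082 in Basal and 987 to 1064 in Late. Ttr was at 1288, 1182 and 714 in Basal and 226, 202 and 224 in Late, and without it the sums of this list overlapped. The part of these cells in the changes of other genes was not tested. With 1 library left out, the call was lost for Fgfr3 (-1.24 to -1.05 without Late 1, Late 2, Late 3, Basal 1 or Basal 2), Aldoc (-0.95 to -0.74 without Late 1, Late 2 or Basal 1) and Slc1a2 (-0.88 to -0.64 without Late 1, Late 2, Basal 1 or Basal 2). Without 1 of the 6 libraries, a call ended for Gpr17 (-1.49 to -1.43 without Late 2 or Basal 1), Flt1 (-3.47 to -0.58 without Late 1, Late 2, Late 3 or Basal 1) and Vtn (-3.42 to -0.56 without Late 1, Late 2, Late 3 or Basal 1). The call was lost on leaving out a library for Otx2 (-2.53 to -2.09 without Late 1, Late 3, Basal 1 or Basal 2). The fold change moved by over 1.5-fold with 1 library left out for Flt1 (-3.61 without Basal 3) and Otx2 (-4.43 without Late 2).

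Several developmental regulators that neurons normally keep silent were counted in Late. Of 48 such genes listed, 24 had too few counts for the test, and since a gene can pass the filter through the Late libraries alone, the number that rose among the rest is not read as a result. Hoxd9, a homeobox factor of the trunk and limbs, was at 59.6, 67.3 and 43.0 in Basal and 722, 738 and 375 in Late (3.45 ± 0.31, adjusted p = 1.2e-06). Hoxc8 was at 15.5, 25.8 and 25.1 and 331, 310.4 and 214 (3.65 ± 0.37, adjusted p = 2.93e-06), and Foxa3, a forkhead factor of liver and gut, at 9.07, 20.2 and 13.6 and 508, 441 and 273 (4.81 ± 0.42, adjusted p = 8.18e-07). Late 3 was the lowest Late library for all 3. No count in Late was found for 10 of the 48, and none in Basal for 18.

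The genes with the smallest p-values included several best known from other tissues. Tigit, an immune checkpoint receptor of lymphocytes, had 786, 717 and 896 normalized counts in Basal and 9529, 8181 and 7076 in Late (3.37 ± 0.19, adjusted p = 5.23e-08). Optc, a matrix protein of the eye, had 73.8, 85.3 and 76.0 and 1302, 1098 and 1155 (3.92 ± 0.21, adjusted p = 5.23e-08), and Alx4, a homeobox factor of the skull and limbs, 171, 116 and 176 and 3359, 2704 and 2147 (4.14 ± 0.24, adjusted p = 5.23e-08). Srd5a3, of the steroid reductase family, rose from 118, 145 and 139.9 to 5165, 4227 and 4675 and Dlk1, an imprinted ligand of the Notch family, from 46.6, 26.9 and 40.9 to 836, 847 and 509.9. Acsm2, Csf2rb2 and Ifi203 rose 7.79-fold, 7.80-fold and 11.4-fold, and Chst3, a sulfotransferase, by 3.46 on the log2 scale. Among genes that fell, Psg28, a placental glycoprotein, had 1919.8, 2066 and 1905 in Basal and 112, 155 and 116 in Late (-3.95 ± 0.21, adjusted p = 5.23e-08). Smn1, which assembles spliceosomal particles, had 1007, 1204 and 1286 and 106, 114 and 127 (-3.33 ± 0.19, adjusted p = 5.23e-08), Tigd3 648, 708 and 628 and 144, 136 and 132, Slfn9 829, 943 and 1176 and 110.5, 88.5 and 128, and Sipa1l2, a regulator of the GTPase Rap, 1099.8, 1354 and 1147 and 204, 221 and 220.4. Psg28, Slfn9, Acsm2, Csf2rb2 and Ifi203 belong to families of near-identical genes, so the assignment of their reads is uncertain.

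By the difference in normalized counts rather than the fold, the 4 genes with the largest rise were the noncoding RNA genes Rn45s, Meg3 (-0.18 with the same total), Snhg11 and Rpph1. Among the next 4 were Plec, the cytoskeletal linker plectin, at 3757, 3779 and 7002 in Basal and 27548, 25729.7 and 16361 in Late (2.26 ± 0.32), Lmtk3, a neuronal kinase, at 4404, 4494 and 7276 and 25810.4, 25602 and 17233 (2.08 ± 0.27), and Rbm25, a splicing regulator, at 3652, 3692 and 5588 and 25885, 22664 and 14298 (2.28 ± 0.28). In the other direction, after Kcnq1ot1, were Grk4, a receptor kinase, at 17746, 18798 and 17501 and 5982, 5667 and 6852 (-1.55 ± 0.16), Olfr613, an olfactory receptor, at 11665, 11019.8 and 12359 and 2529, 2439 and 2397 (-2.25 ± 0.14), Zfp488 at 13838, 13229 and 11802 and 3931, 4100.5 and 3884, and Synj2bp at 10978, 12454 and 11336 and 3442, 3687 and 3634. Vps13c, a lipid transport protein, and Lyst, a regulator of lysosome size, fell by 1.91 and 2.11 on the log2 scale.

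Set beside the other groups, the genes fell into different places. Of all genes, 42.3% passed between Late and Early and 22.6% between Late and Reactivated. These comparisons share the Late libraries by which most of the genes were chosen, so small p-values in them are no separate support. Prox1 was at 290.1 in Early and 252 in Reactivated (means), nearer to Late than to Basal, and was still lower in Late than in Early (-1.28, adjusted p = 0.00816) and than in Reactivated (-1.05, adjusted p = 0.0408). Vip was at 18.0 in Early and 22.2 in Reactivated, and its difference between Late and Early did not pass (-0.43, adjusted p = 0.457). Gpr161 was at 316 and 479, and neither difference from Late passed (adjusted p = 0.146 and 0.334). Kcnq5 was at 717 and 479, below Late in both (adjusted p = 0.00637 and 4.65e-05). Arc was at 435 and 659.6, and neither difference from Late passed (adjusted p = 0.117 and 0.651), whereas Fosb, at 36.6 and 64.4, was higher in Late than in either (adjusted p = 3.41e-05 and 0.00467).

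For other genes the Early mean was close to the Basal mean. Most of them were chosen by their change between Late and Basal. Small p-values of the same Late libraries against Early and Reactivated are therefore no separate support. Tigit was at 812 in Early and 1002 in Reactivated, and higher in Late by 3.35 and 3.05 (adjusted p = 4.32e-08 and 1.88e-07). Srd5a3 was at 174 and 260.3 (Late higher by 4.75 and 4.19), and Alx4 at 168 and 236 (by 4.02 and 3.54). Smn1 was at 1299 in Early and 648 in Reactivated, between Late and Basal in the latter (Late lower, adjusted p = 4.32e-08 and 5.85e-07), and Psg28 at 2203 and 994 (adjusted p = 3.38e-08 and 3.55e-07). Snord33 was at 25.3 and 107, against 3348 ± 1167 in Late (mean ± SD, n = 3), and Mir137 at 4.61 and 6.85. Bdnf, at 298 and 359, was higher in Late than in Early (1.25, adjusted p = 0.00131) and than in Reactivated (0.98, adjusted p = 0.0119), and Dusp7, at 190.3 and 322, likewise (adjusted p = 4.79e-07 and 2.71e-05).

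**Figure D5:**
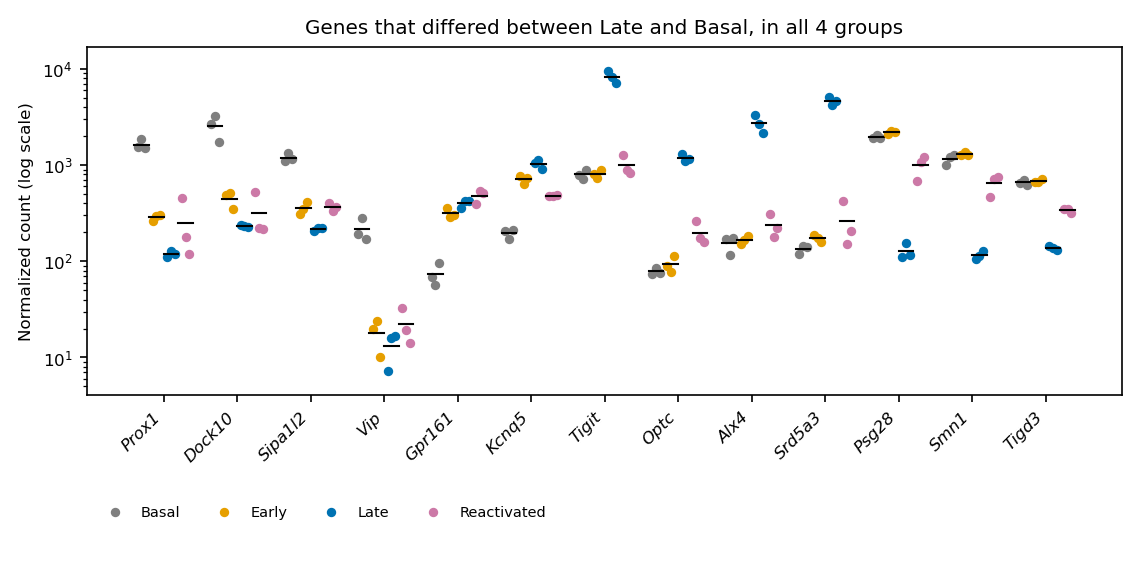
Each point is the normalized count of 1 library (y axis, log scale) and black lines are group means, for the 3 libraries each of Basal (grey), Early (orange), Late (blue) and Reactivated (pink). From Prox1 to Kcnq5 the Early points lie away from Basal, and from Tigit to Tigd3 the Early points lie close to Basal while the Late points lie apart.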

How the data were processed

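Per the labels' protocols, RNA of sorted hippocampal nuclei was made into libraries with a stranded total RNA kit that removes ribosomal cDNA, with 15 PCR cycles, while the series' design text names another chemistry. The submitters' processing notes name Bowtie2 2.0, Cufflinks 2.2, DESeq2 and the mm9 build. For the counting tool, its strand setting and its annotation, nothing is stated in those notes. The authors deposited 1 table of 24015 gene symbols in the 12 libraries. Its name calls the values normalized, but they are whole numbers that sum to different totals, and they were used as raw counts deposited by the authors. All 12 libraries, 4838166 to 11120255 counts in those compared, were fitted in edgeR 4.0.16 (R 4.3.3) with 4 group means, TMM scaling, the quasi-likelihood test and Benjamini-Hochberg adjustment over all genes with a count of 10 or more in 3 libraries. Fold changes are those of the edgeR fit at its default prior count, and errors of fold changes are standard errors. A prior count of 2 was used only for the log levels of the GC correction and of the correlations between libraries. The fit was tested on simulated data. Libraries of a group are pools of mice. The p-values rest on the spread between pools within a group, estimated from all 4 groups together and moderated across genes, and not on single mice. Alternatives were other scalings, filters, DESeq2 1.42.0, the 6 libraries alone, a replicate block, a correction for GC content, thinning and leaving out each library. GC content and gene classes come from GENCODE M21 and promoters and microRNAs from RefSeq, matched by symbol. No mm9 annotation was used here, so the table's own symbols carry no coordinates.

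The members and gene lists were chosen with earlier results of these data known. Named genes are the 15 with the smallest p and the 10 with the largest difference of mean normalized counts in each direction, among genes that passed, had a mean of 50 or more and did not overlap, and up to 4 of each list by p. Other members named from counts of few genes, the rest of the members listed with them, and the small RNA genes with their hosts were chosen after their values were seen. Some members of the lists are not reported here by name.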

Additional observations from a re-analysis of the deposited data

How the results depend on the processing

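Of 299 genes named, 197 kept their direction and their side of the threshold under all 19 alternatives. Scaling changed the counts most. On the values as deposited 4473 genes passed between Late and Basal, 1780 of them higher, and 1746 between Late and Reactivated. With the same total 1401 genes were higher and 9062 lower, and with the same total without Rn45s 2532 and 5944. Leaving out each library in turn gave 6128 to 7904 genes between Late and Basal, 3294 to 4175 higher and 2795 to 3729 lower, 4812 to 7023 between Late and Early, and 2157 (without Late 1) to 3827 between Late and Reactivated, with 2208 without Late 2. The difference in the Rn45s share was 26.0 percentage points and ranged from 24.4 to 28.7. DESeq2 called 7927 genes and the 6 libraries alone 8442. Same-numbered Late and Basal libraries correlated at -0.06, -0.04 and -0.18 in their deviations from the group means. Differently numbered ones correlated at -0.09 to 0.14. This gives no sign of pairing by number, but so few libraries cannot exclude a shared batch. With the replicate block 7665 genes passed between Late and Basal, 6612 between Late and Early and 3466 between Late and Reactivated, and with the replicate block and GC correction 7000, 5556 and 3571. No paired value moved a count by over 1.5 times.

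The direction turned for a few genes with small changes. With the same total the log2 fold change was -0.43 for Crtc2, -0.27 for Cacng2, -0.49 for Gria1, -0.18 for Meg3, -0.32 for Miat, -0.033 for Dnmt3a, -0.32 for Dnmt1, -0.24 for Mrpl4, -0.25 for Sdhb, -0.33 for Ndufv1, -0.41 for Hsp90aa1, -0.093 for Cry2, -0.35 for Tef, -0.13 for Sox11, -0.18 for Mbp, -0.11 for Kl, -0.26 for Rpl13a, -0.62 for Rpl12 and -0.51 for Rbfox3. With the same total without Rn45s it was -0.014 for Gria1, -0.15 for Rpl12 and -0.027 for Rbfox3, and for Rpl12 it was -0.013 with upper quartile scaling and -0.077 on the values as deposited. With GC correction, alone or with the replicate block, it was 0.29 for Gria2, 0.019 (0.018 with the block) for Cacnb4, 0.10 for Elavl2 and -0.11 for Rbfox3 in either fit. The calls of 47 genes ended with the same total and of 63 on the values as deposited, and the cause was not tested. Not all of these genes are marked where they are named. Low counts limit Fos, Mir9-1 and the markers of microglia and vessels that had too few counts for the test.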
